A study of Mus musculus with 192 samples.

Results

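The RNA exosome subunits Exosc1 to Exosc10 were followed across single erythroid progenitors of the mouse. They were taken by symbol from the gene count table, in which all 10 have a row among 49466 genes, and 9 of the 10 had counts. The cells came from fetal liver of C57/Bl6J embryos at embryonic day 14.5, with no mutation or treatment named for either group, and were sorted singly after removal of cells bearing mature-lineage antigens, Sca-1, CD16/32 or CD41. A plate of 96 wells held burst-forming units-erythroid (BFU-E), early committed red cell progenitors, and another plate of 96 wells held colony-forming units-erythroid (CFU-E), the stage that follows. Plate, sequencing lane and cell type coincide, so the 3 cannot be told apart. Neither the sort gates nor a number of embryos is given in the sources used here.

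The exosome is a barrel-shaped complex that degrades and trims RNA from the 3′ end in the nucleus and the cytoplasm. In mammals a ring of paired subunits without catalytic activity is closed by a cap of RNA-binding subunits, and the cutting is done by attached ribonucleases, EXOSC10 in the nucleus and DIS3 or DIS3L. In erythroid precursors the complex is known as a brake on maturation that helps to maintain signalling through the receptor KIT, and the erythroid factors GATA1 and FOXO3 have been reported to repress genes of its subunits.

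Of the 191 wells with a matched column, 92 BFU-E and 89 CFU-E cells had at least 100000 counts and 2000 genes. Their totals ran from 114288 to 3864040 counts in BFU-E and from 131891 to 2992101 in CFU-E, with medians of 7869.5 and 7789 genes. Each cell was reduced at random to 100000 counts, the counts were summed by group, and levels are counts per 1000000 (CPM). No label names the embryo behind a cell, so each cell type is 1 sample: there is no p-value, and the 95% intervals in parentheses cover counting error only. All 14 erythroid markers had counts on the BFU-E plate and in CFU-E cells, yet 38 of the BFU-E cells formed a granulocyte-monocyte-like (GM-like) cluster, whose 10 leading genes included Csf1r and Ctsg but also Ighm, a lymphoid marker at 394 CPM there. The summed level of 14 granulocyte-monocyte markers was 5560 CPM in these cells (90 to 18660 per cell), 322 CPM in the other 54 BFU-E cells (0 to 5880), called erythroid-like here, and 1.8 CPM over CFU-E cells (0 to 70). Mpo, Prtn3 and Elane, which encode granule enzymes, had no count in CFU-E cells. The sum of 10 megakaryocyte markers was 526 CPM in erythroid-like (0 to 4740 per cell), 156 CPM in GM-like (0 to 870) and 26.2 CPM in CFU-E cells (0 to 130). Of these markers Itga2b, which encodes CD41, had counts in 47 of the 54 erythroid-like cells, and Pf4 and Ppbp had none in any group. The sum of 10 hepatocyte markers was 225 CPM in erythroid-like cells (0 to 3310), 195 CPM in GM-like cells (0 to 610) and 168 CPM in CFU-E cells (0 to 1770). The part of these markers in the differences below was not tested. On the CFU-E plate, 4 cells had counts for at least 3 of 16 lymphoid markers. The levels of the subunits are therefore also given for the erythroid-like BFU-E cells alone.

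The promoter stretches of 4 subunit genes are shown because 3 of them (Exosc2, Exosc3 and Exosc5) encode subunits that stood lower in CFU-E cells, while Exosc10 differed little. They were taken from RefSeq on GRCm38.p6, lie in the 250 bases before the RefSeq start and touch no annotated exon. In the GENCODE M21 annotation the Exosc3 gene runs from 45316613 to 45342732 on the minus strand, so its stretch lies inside that gene. Capitals mark the motifs found, namely CCAAT, the FOXO motif TGTTTAC and the E-box CACGTG, on either strand. The positions are chr2:31670465-31670714 (plus strand) for Exosc2, chr4:45320630-45320866 (minus strand) for Exosc3, chr7:25658982-25659152 (plus strand) for Exosc5 and chr4:148558169-148558418 (plus strand) for Exosc10.
Exosc2: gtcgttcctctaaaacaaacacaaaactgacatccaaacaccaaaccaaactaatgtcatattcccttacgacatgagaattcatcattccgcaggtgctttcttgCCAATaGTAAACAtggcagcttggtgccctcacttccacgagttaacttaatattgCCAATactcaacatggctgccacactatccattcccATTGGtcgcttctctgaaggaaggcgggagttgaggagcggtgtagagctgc
Exosc3: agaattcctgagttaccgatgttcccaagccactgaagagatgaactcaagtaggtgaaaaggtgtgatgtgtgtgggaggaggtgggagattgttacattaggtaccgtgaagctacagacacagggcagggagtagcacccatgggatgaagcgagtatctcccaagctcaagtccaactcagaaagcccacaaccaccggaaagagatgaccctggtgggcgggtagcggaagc
Exosc5: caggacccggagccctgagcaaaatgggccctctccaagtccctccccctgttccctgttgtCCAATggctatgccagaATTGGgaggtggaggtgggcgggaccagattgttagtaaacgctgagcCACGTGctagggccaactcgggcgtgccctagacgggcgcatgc
Exosc10: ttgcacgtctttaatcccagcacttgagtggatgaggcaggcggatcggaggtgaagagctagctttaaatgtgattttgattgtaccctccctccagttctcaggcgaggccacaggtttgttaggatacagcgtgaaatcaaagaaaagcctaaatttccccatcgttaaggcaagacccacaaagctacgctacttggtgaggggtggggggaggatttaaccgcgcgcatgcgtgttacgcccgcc
The Exosc2 stretch holds a FOXO motif and 3 CCAAT motifs, and the Exosc5 stretch holds 2 CCAAT motifs and an E-box. The stretches of Exosc3 and Exosc10 hold none of the motifs searched.

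Over the whole promoter windows, which run from 250 bases before to 50 after the start, 8 of the 10 subunit genes had an entry. The GATA motif was searched on both strands as AGATAA and also in a form with another last letter, AGATAG. Its other forms were TGATAA and, again with the other last letter, TGATAG. None of these was in any of the 8 windows, against 29.8% of all 32851 windows. The FOXO motif was in the windows of Exosc2 and Exosc6, against 3.65% of all windows. CCAAT was in those of Exosc1, Exosc2 and Exosc5, against 37.4%. The ETS motif CCGGAAG was in that of Exosc3 (8.86% of all windows), and the E-box was in that of Exosc5 (7.15%). Guanine and cytosine made up 75.3% and 75.7% of the windows of Exosc7 and Exosc8, 65.7% of that of Exosc1 and 48% of that of Exosc2, against a median of 52.7% over all windows. These matches describe letters and were not tied to any level.

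The comparison of the 2 plates shows how transcripts of the complex differ between successive progenitor stages. Summed over the 9 subunits with counts, the complex averaged 1021 CPM (1001 to 1042) over BFU-E and 812 CPM (793 to 831) over CFU-E cells, in a ratio of 0.795 (0.771 to 0.820). This difference was smaller than that of the typical gene. Across the 9440 genes with a mean of at least 5 CPM, the median log2 fold was −0.57, and the complex, at −0.33, lay 0.24 above it. Factors from the trimmed mean of M values (TMM) moved the median of all genes to 0.00 and the complex to 0.24. With median-of-ratios factors they stood at 0.06 and 0.30. The complex was thus lower in CFU-E cells per total counts and higher under the other 2 scalings. Its distance of 0.24 above the median of all genes is nearly fixed across the 3, since a factor moves all genes of a group alike. Against the erythroid-like BFU-E cells, which share the CFU-E cells with the first comparison, the sums were 1061 and 812 CPM, a ratio of 0.765 (0.739 to 0.793). There the log2 fold of the complex was −0.39 beside a median of −0.53 for all genes, so it lay 0.15 above the median rather than 0.24.

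The subunits did not differ alike. No subunit was at least 2-fold higher or lower in CFU-E cells, where 6.45% of all measured genes were higher and 34.2% lower by that much. At 1.5-fold, 4 of 9 subunits (Exosc2, Exosc3, Exosc5 and Exosc9) were lower, beside 50.4% of all measured genes, and none was higher, beside 11.7%. The 4 of 9 is thus close to the share among all genes. The same 4 subunits passed 1.5-fold against the erythroid-like BFU-E cells, beside 48.6% of the genes measured there, and none was higher, beside 11.5%. Under TMM none was lower (28.1% of genes) and 1, Exosc7, was higher (27.2%), and under median-of-ratios factors none was lower (26.3%) and 2, Exosc1 and Exosc7, were higher (29%). Exosc1, Exosc4, Exosc7, Exosc8 and Exosc10 lay above the median of all genes, and the other 4 measured subunits below it. A scaling factor moves all genes of a group alike, so the 3 scalings could hardly alter this split and are not separate support for it.

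**Figure D1:**
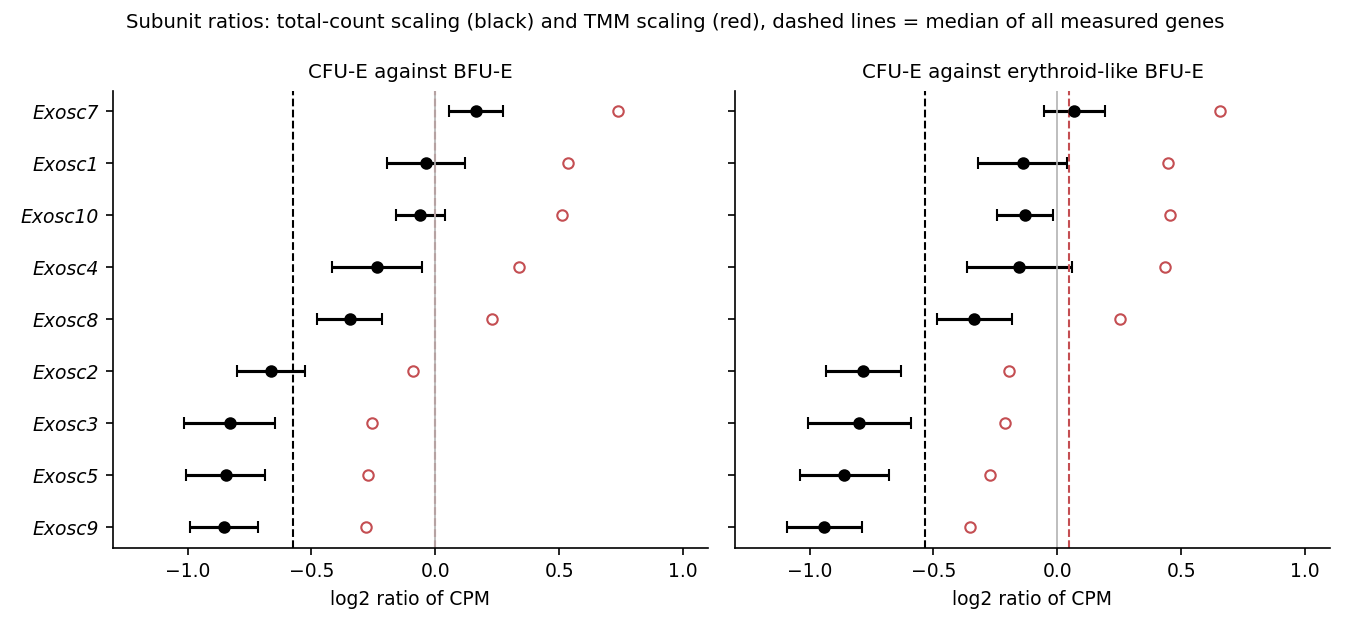
Log2 ratio of CPM in CFU-E over BFU-E cells (left) and over erythroid-like BFU-E cells (right) for each subunit, with 95% intervals of counting error for total-count scaling (black) and values under TMM (red, open). Dashed lines mark the median of all measured genes under each scaling. Exosc9, Exosc5, Exosc3 and Exosc2 lie left of the line of their colour and the other 5 right of it in both panels.

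The cap consists of Exosc1, Exosc2 and Exosc3, which carry RNA-binding domains. Exosc2 averaged 124 CPM over BFU-E (0 to 420 per cell, median 100) and 78.5 CPM over CFU-E cells (0 to 210, median 70), 1.58-fold lower (1.44 to 1.74). No CFU-E cell reached the higher levels seen on the BFU-E plate, but the groups overlapped from 0 to 210 CPM. Within the BFU-E plate it was at 135 CPM in erythroid-like and 109 CPM in GM-like cells. The log2 fold of Exosc2 was −0.92 over the cells with even label numbers and −0.43 over those with odd ones, so its size differed between wells of the same plates. Exosc3 averaged 75.7 CPM over BFU-E (0 to 300 per cell, median 70) and 42.6 CPM over CFU-E cells (0 to 210, median 40), 1.78-fold lower (1.57 to 2.02). Its levels in erythroid-like and GM-like BFU-E cells, 74.1 and 77.9 CPM, had overlapping intervals. Exosc1 was at 74.1 CPM (0 to 250 per cell, median 60) and 72.3 CPM (0 to 350, median 60), a ratio of 0.975 (0.874 to 1.09). Its cells overlapped over nearly the whole range, and its log2 fold was −0.04, or 0.54 above the median of all genes. Without the GM-like and lymphoid-marker cells it was −0.23.

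The ring is built of pairs related to bacterial RNase PH, with Exosc4, Exosc5, Exosc7, Exosc8 and Exosc9 measured here. Exosc9 averaged 136 CPM over BFU-E (0 to 410 per cell, median 120) and 75.2 CPM over CFU-E cells (0 to 230, median 70), 1.81-fold lower (1.64 to 1.99). Its interval overlapped those of Exosc5 and Exosc3, so no order among the 3 is read. Without thinning its log2 fold of −1.14 passed 2-fold. Exosc5 averaged 98.2 CPM over BFU-E (10 to 290 per cell, median 80) and 54.6 CPM over CFU-E cells (0 to 230, median 50), 1.8-fold lower (1.61 to 2.01). It had a count in all 92 BFU-E cells and in 85 of 89 CFU-E cells. Exosc8, the subunit reported as a target of GATA1 and FOXO3, averaged 119 CPM over BFU-E (0 to 340 per cell, median 115) and 93.8 CPM over CFU-E cells (10 to 300, median 90), 1.27-fold lower (1.16 to 1.39). Its ratio lay above that of the typical gene, by 0.23 on the log2 scale, and its sign turned under TMM (0.23) and median-of-ratios factors (0.28).

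Exosc4 averaged 61.1 CPM over BFU-E (0 to 510 per cell, median 40) and 51.9 CPM over CFU-E cells (0 to 200, median 40). The medians over cells were the same, and a single erythroid-like cell held 16.4% of the Exosc4 counts of its group. Its log2 fold of −0.23 turned to 0.33 under TMM. Exosc7 averaged 146 CPM over BFU-E (0 to 440 per cell, median 140) and 164 CPM over CFU-E cells (0 to 420, median 150), a ratio of 1.12 (1.04 to 1.21). Per total counts no other subunit had a ratio above 1, while under TMM Exosc1, Exosc4, Exosc8 and Exosc10 did too, at log2 folds of 0.53, 0.33, 0.23 and 0.51. The direction of Exosc7 did not hold throughout, since the log2 fold was 0.34 over cells with even label numbers and −0.01 over those with odd ones. Against erythroid-like BFU-E cells, at 156 CPM, the ratio of 1.05 (0.963 to 1.14) was within counting error.

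Exosc10, the nuclear ribonuclease of the numbered family, averaged 187 CPM over BFU-E (0 to 630 per cell, median 170) and 179 CPM over CFU-E cells (0 to 490, median 150), a ratio of 0.959 (0.895 to 1.03). The log2 fold was 0.32 over cells with even label numbers and −0.41 over those with odd ones, so no direction can be read. The other catalytic subunits had lower counts. Dis3 averaged 41.6 CPM over BFU-E, 50.6 CPM in the erythroid-like cells among them and 34.6 CPM over CFU-E cells, in a ratio of 0.831 (0.713 to 0.968) over the plates, and was at 0 in 45 of 92 BFU-E and 45 of 89 CFU-E cells. Dis3l, its cytoplasmic relative, averaged 45.3 CPM over BFU-E and 63.5 CPM over CFU-E cells, 1.4-fold higher (1.23 to 1.59). On the log2 scale Dis3l lay 1.05 and Dis3 0.31 above the median of all genes. Under TMM their log2 folds were 1.04 and 0.30. In GM-like cells Dis3 was at 29 CPM, 1.75-fold lower (1.4 to 2.2) than in erythroid-like cells.

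**Figure D2:**
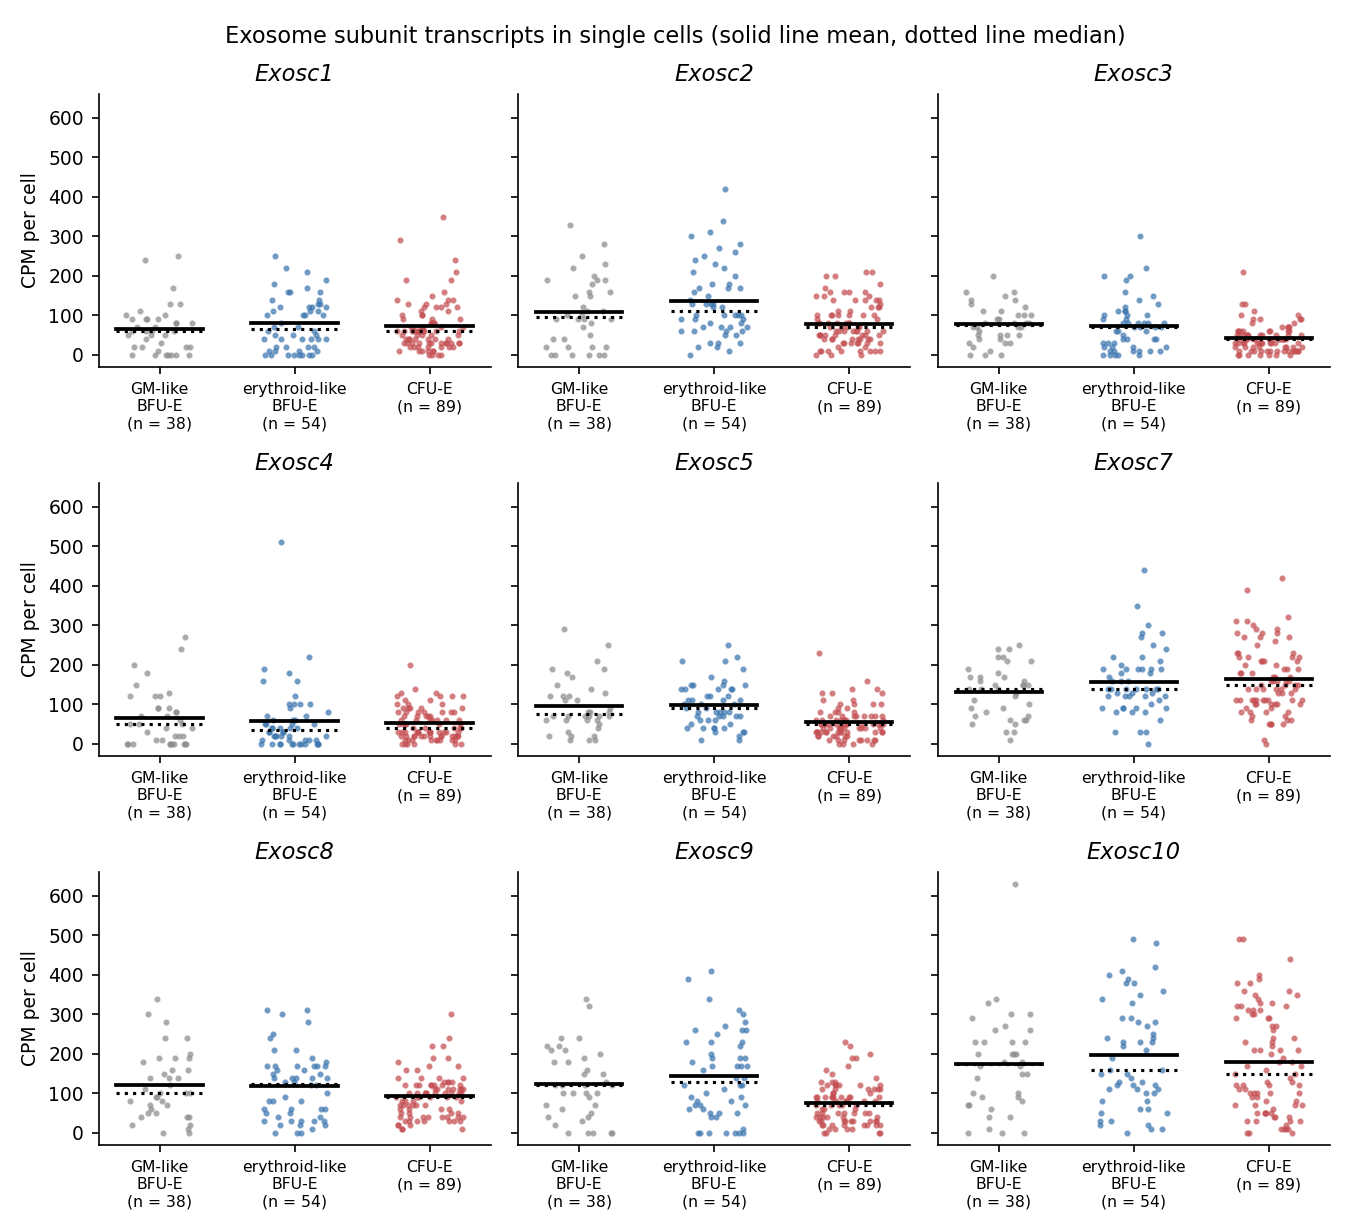
CPM per cell after reduction to 100000 counts, with 1 point per cell, for the 9 subunits with counts in GM-like BFU-E (n = 38), erythroid-like BFU-E (n = 54) and CFU-E cells (n = 89). Solid lines are means and dotted lines medians over cells. The groups overlap for every subunit, and Exosc2, Exosc3, Exosc4, Exosc5, Exosc8 and Exosc9 have their lowest means in CFU-E cells.

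The mix of subunit transcripts can be read without any scaling, as the share of each subunit in the summed exosome counts of a group. These are shares of reads, without correction for length, and they leave out Exosc6, Dis3 and Dis3l. They do not measure the make-up of the protein complex. Exosc7 made up 14.3% of these counts in BFU-E (13.6% to 15%) and 20.2% in CFU-E cells (19.3% to 21.1%). In the cells with even and odd label numbers it was 14.3% and 14.3% in BFU-E and 21.1% and 19.2% in CFU-E. Exosc9 lay the other way, at 13.3% (12.6% to 14%) and 9.26% (8.6% to 9.95%), with 12.7% and 13.8% against 9.26% and 9.26% in the even and odd cells. There were 1.08 counts of Exosc7 for each of Exosc9 in BFU-E, 1.08 in erythroid-like and 1.07 in GM-like BFU-E, and 2.18 in CFU-E cells. The ratio in CFU-E cells was 2.28 and 2.08 over even and odd cells and 2.37 without thinning. It was 1.25, 0.91 and 0.932 by the same 3 counts in GM-like cells and 1.04, 1.11 and 1.09 in erythroid-like ones. The order of the 2 BFU-E groups thus turned, and CFU-E cells lay above both in each count. Exosc7 had the highest ratio of CFU-E over BFU-E in these same counts and Exosc9 was among the lowest. The higher Exosc7 to Exosc9 ratio in CFU-E cells therefore follows from the choice of this pair. Even and odd cells are parts of the same plates and the unthinned counts are from the same cells, so they are not repeats.

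Exosc5 made up 9.61% (9.02% to 10.2%) of the exosome counts in BFU-E and 6.73% (6.16% to 7.33%) in CFU-E cells. Exosc3 made up 7.41% (6.89% to 7.96%) and 5.25% (4.74% to 5.79%). For both, the even and the odd CFU-E cells each lay below the even and the odd BFU-E cells. Exosc2 went from 12.2% to 9.68% over all cells, but from 11.1% to 11.1% over odd cells, so the difference rested on the even cells (13.5% against 8.24%). Exosc10 made up 18.3% and 22.1%, with 19.8% against 20.2% over odd cells. Exosc8 was at 11.7% and 11.6%, Exosc4 was at 5.98% and 6.4%, and Exosc1 at 7.26% and 8.9%. By architecture, the measured ring made up 54.9% (53.9% to 55.9%) in BFU-E and 54.1% (53% to 55.3%) in CFU-E cells, with overlapping intervals, so the differences between ring subunits offset each other in its sum. The cap made up 26.8% and 23.8%, but 26.1% and 27.3% over odd cells.

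**Figure D3:**
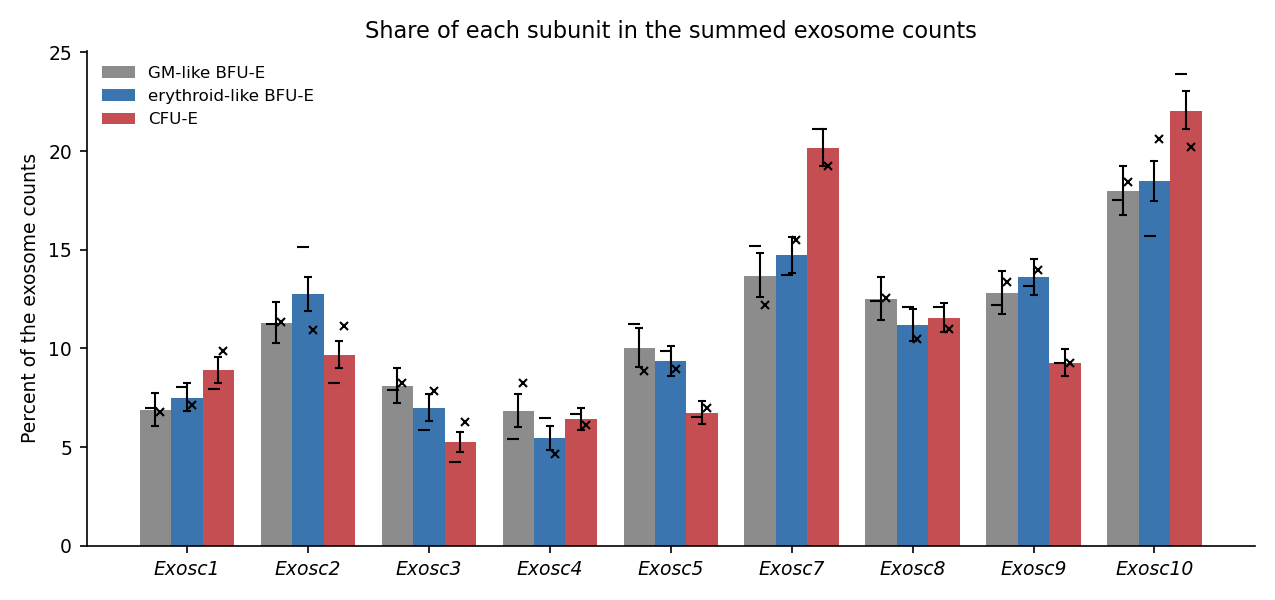
Percent of the summed exosome counts taken by each subunit in GM-like BFU-E, erythroid-like BFU-E and CFU-E cells. Error bars are 95% intervals of counting error, dashes are cells with even label numbers and crosses cells with odd ones. Exosc7 takes 20.2% in CFU-E cells against 13.7% and 14.7% in the BFU-E groups, and Exosc9 takes 9.26% against 12.8% and 13.6%.

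Exosc6, the remaining ring subunit, had no count in any of the 191 wells. Among their 215656553 counts, 3 counts, the limit that a count of 0 allows, would be 0.0139 CPM. Exosc6 (ENSMUSG00000109941) lies on chromosome 8 from 111056339 to 111057664 in GRCm38. In the GENCODE M21 annotation all of its 1326 exonic bases lie inside an exon of Aars on the same strand. Aars, which encodes the alanyl-tRNA synthetase, averaged 118 CPM over BFU-E and 176 CPM over CFU-E cells. Of 128 protein-coding genes whose exonic bases all lie in exons of other genes, 104 (81.25%) had no count in any well, against 31.27% of 15682 genes with no such overlap. Among 5924 genes with only some of these bases shared it was 13.86%, so the share did not rise steadily with overlap. How reads shared by 2 genes were treated is not given, so the 0 for Exosc6 is not a measurement of its transcript, and every sum for the complex leaves it out.

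The other subunits overlap less with neighbours. On GRCm38, Exosc9 (chromosome 3, 36552606 to 36565727) shares 510 exonic bases (10.8%) with the cyclin gene Ccna2 on the opposite strand, and Exosc4 (chromosome 15, 76327397 to 76330677) shares 385 (19.8%) with Oplah. Exosc2 (chromosome 2, 31670715 to 31681349) shares 358 (12.4%) with the predicted gene Gm13427. Exosc5 (chromosome 7, 25659164 to 25671368) shares 355 (5.66%) with Tmem91, Exosc8 (chromosome 3, 54728678 to 54735393) 89 (2.05%) with Supt20 and Exosc3 (chromosome 4, 45316613 to 45342732) 53 (4%) with Dcaf10. Exosc1 (chromosome 19, 41922292 to 41933423), Exosc7 (chromosome 9, 123113215 to 123136129) and Exosc10 (chromosome 4, 148558429 to 148582401) share none. Ccna2 stood higher in CFU-E cells (291 CPM over BFU-E against 1309 CPM), opposite to Exosc9, while Tmem91 stood lower (20.9 and 3.6 CPM), as Exosc5 did. Supt20 was at 118 and 84 CPM and Dcaf10 at 17.8 and 28 CPM, and Oplah and Gm13427 were under 3 CPM in both. The library kit does not mark strand, so reads from such shared stretches cannot be assigned to 1 gene, and their part in the differences above was not tested.

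Levels of different subunits are compared per kilobase (kb) of transcript, and their order depended on the length used. Per kb of all exonic bases, Exosc3 and Exosc10 stood highest in BFU-E cells, at 57.1 (53 to 61.6) and 52 CPM per kb (49.5 to 54.5), with overlapping intervals. In CFU-E cells Exosc10, at 49.8 CPM per kb (47.4 to 52.3), stood above Exosc3 at 32.2 (29 to 35.6). Exosc5, at 15.7 and 8.71 CPM per kb, was the lowest of the numbered subunits in both. Per kb of the longest coding transcript, Exosc7 stood first in both cell types, at 139 and 156 CPM per kb, followed by Exosc8 at 91.7 and 72.2. The exonic bases of Exosc7 sum to 6013 against 1053 in that transcript. Dis3 was last under both lengths, at 5.37 and 4.46 CPM per kb of exonic bases and 8.08 and 6.72 per kb of the longest coding transcript.

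Summed over the subunits, single cells ran from 390 to 1750 CPM in BFU-E (median 1010) and from 240 to 1420 CPM in CFU-E cells (median 790). The value of 240 is that of a single CFU-E cell without a Gata1 count, and the next lowest was at 460. The cell at 240 is among the 4 with counts for at least 3 lymphoid markers, and its maturation genes summed to 830 CPM. Of 89 CFU-E cells, 74 (83.15%) lay below the BFU-E median, and the groups overlapped from 390 to 1420 CPM. GM-like BFU-E cells ran from 390 to 1570 CPM (median 920) and erythroid-like ones from 420 to 1750 CPM (median 1030). Between these BFU-E groups the complex stood at 965 and 1061 CPM, and no subunit differed by 1.5-fold, beside 22.5% of measured genes higher and 18.3% lower in GM-like cells. The coefficient of variation over cells was 0.268 and 0.252 for the sum in BFU-E and CFU-E cells and a median of 0.736 and 0.724 for single subunits. All 9 subunits were detected in 47.8% of BFU-E and 69.7% of CFU-E cells at 100000 counts, and in 67.4% and 93.3% without thinning. In both counts the share was higher in CFU-E cells, although their summed CPM was lower. Cells of a plate are not repeats, and the difference between the shares was not tested.

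**Figure D4:**
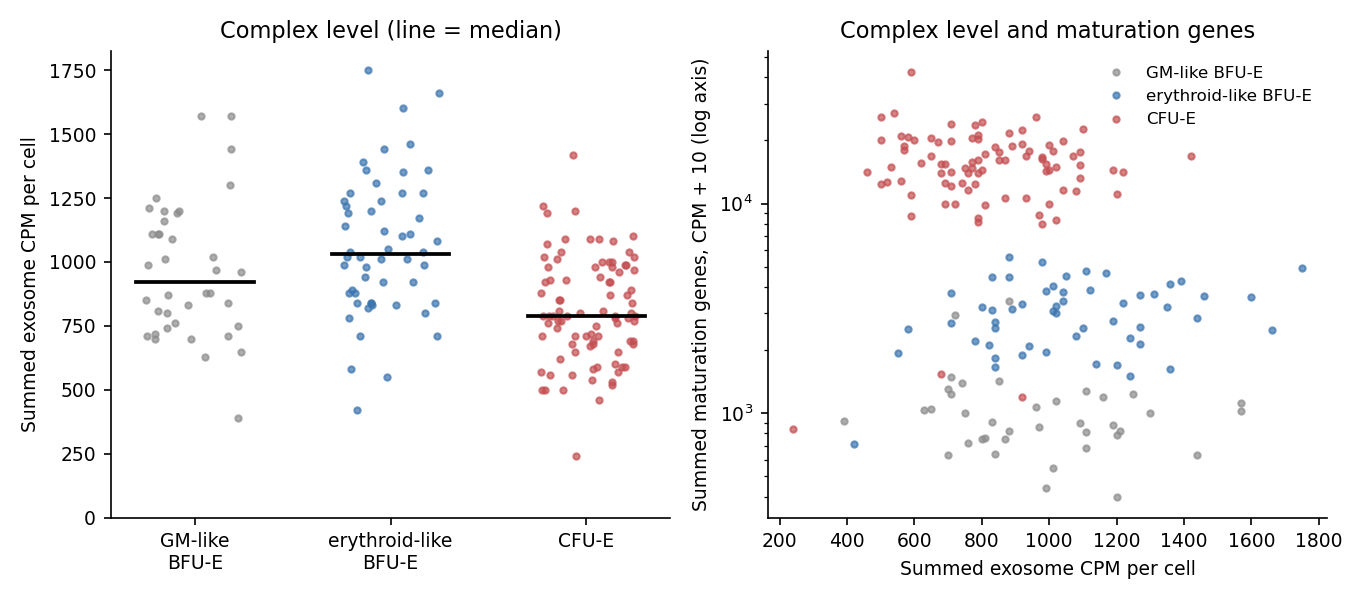
Summed exosome CPM per cell in GM-like BFU-E, erythroid-like BFU-E and CFU-E cells with group medians of 920, 1030 and 790 CPM (left), and the same level against the summed CPM of 26 erythroid maturation genes plus 10 on a log axis (right). The maturation genes separate most CFU-E cells from the BFU-E cells, while the exosome level overlaps between them.

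Within a cell type, the subunits hardly varied together across cells. Over the 36 pairs, the median Spearman rho was 0.02 in 92 BFU-E and 0.02 in 89 CFU-E cells, with a range of −0.22 to 0.34 and of −0.24 to 0.22. The highest pair in BFU-E cells was Exosc8 with Exosc9, and in CFU-E cells Exosc9 with Exosc10. Cells of a plate share library preparation and lane, and their counts are sparse, so these values describe the plates only. The summed complex had a rho of 0.37 with Klf1, an erythroid transcription factor, over BFU-E cells, 0.46 over the 54 erythroid-like ones and 0.03 over CFU-E cells. With raw counts, a measure of depth, it was 0.28, 0.35 and −0.06 in the same cells, and with genes detected after thinning 0.30, 0.36 and 0.15. With Kit it was −0.03 over BFU-E, −0.19 over erythroid-like and −0.03 over CFU-E cells. In the same order it was 0.23, 0.24 and −0.03 with Gata1 and −0.04, 0.01 and −0.17 with Foxo3. With the summed maturation genes it was 0.195, 0.183 and −0.07, and with Mki67 0.32, 0.26 and −0.03. Klf1 was looked at beyond the planned genes, and its values over BFU-E and erythroid-like cells were the highest of those looked at. The difference in rho between cell types was not tested.

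The 5 genes most like the complex over cells, by the lower of the rho values in BFU-E and CFU-E among 5170 genes with at least 20 CPM in both, were Snrpd1, Nop58, Eif4e, Hspd1 and Poc5, at 0.29 to 0.27. The median over these genes was 0.05 in BFU-E and 0.01 in CFU-E cells. Snrpd1 encodes a core protein of spliceosomal particles, Nop58 a protein of the particles that methylate ribosomal RNA, Eif4e the cap-binding translation factor, Hspd1 a mitochondrial chaperonin and Poc5 a centriole protein.

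The factors that the complex is tied to in erythroid cells are given for orientation. Kit, the stem cell factor receptor, averaged 608 CPM over BFU-E (10 to 3340 per cell, median 570) and 73.7 CPM over CFU-E cells (0 to 280, median 60), 8.25-fold lower (7.61 to 8.96). Gata1 averaged 194 CPM over BFU-E, 327 CPM in the erythroid-like cells among them and 441 CPM over CFU-E cells. Foxo3 was at 44 and 21.9 CPM, 2.01-fold lower in CFU-E cells (1.69 to 2.4), at −0.40 relative to the median of all genes on the log2 scale. Of 7 measured genes in this list of regulators, 3 exceeded 2-fold upward in CFU-E cells and 3 downward, beside 6.45% and 34.2% of all genes, led by Epor, the erythropoietin receptor (86 and 391 CPM), and Klf1 (109 and 444 CPM) above and by Gata2, a progenitor factor (34.9 CPM and a count of 2 in CFU-E cells), and Kit below. At 1.5-fold the counts were 3 higher and 3 lower (11.7% and 50.4% of all genes), 2 and 4 against erythroid-like BFU-E cells (11.5% and 48.6%), and 3 and 2 under TMM (27.2% and 28.1%). Of 25 measured maturation genes, 20 were at least 2-fold higher, beside 6.45% of all genes, led by Hba-a1, an alpha-globin gene with a near-identical copy (2.61 and 495 CPM), and Trim10 (a count of 2 against 80.4 CPM). The lowest were Trim58 (7.5 and 5.96 CPM) and Map1lc3b (145 and 79.2 CPM). Both lists were chosen with such differences known.

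Among the partners of the exosome, Skiv2l2, the helicase Mtr4 that feeds RNA to the nuclear complex, averaged 214 CPM over BFU-E and 220 CPM over CFU-E cells, in a ratio of 1.03 (0.966 to 1.1). Of 12 nuclear cofactors, 6 were at least 1.5-fold lower, the share of all genes being 50.4%, and 4 of them at least 2-fold (34.2%). None was 1.5-fold higher (11.7%). Under TMM 3 were 1.5-fold higher and 3 lower (27.2% and 28.1% of all genes). By total counts the list had a median log2 fold of −0.61 beside −0.57 for all genes. Pabpn1, a nuclear poly(A)-binding protein, stood lowest, at 15 and 2.13 CPM, 7.03-fold lower (4.33 to 12), and Zcchc7 of the TRAMP complex was at 101 and 31.4 CPM. Pabpn1 shares 21.45% of its exonic bases with Gm20521 on the same strand, and the part of shared reads in its difference was not tested. The highest were Mphosph6, at 38.9 and 48.3 CPM, and Rbm7 of the nuclear exosome targeting complex, at 210.5 and 257 CPM. Of 4 measured members of the list around the cytoplasmic SKI complex, Hbs1l, a partner that rescues stalled ribosomes, was 1.58-fold higher (1.48 to 1.69) and none was 1.5-fold lower, beside 11.7% and 50.4% of all genes. Wdr61 (1.38 to 1.62) and Ttc37 (1.3 to 1.72) lay just short of 1.5-fold lower, a value inside both of these intervals. Against erythroid-like BFU-E cells, Wdr61 (1.6-fold) and Skiv2l (1.53-fold) passed it, beside 48.6% of genes. Skiv2l, the helicase of the SKI complex, stood at 98.3 and 73 CPM, and the scaffold subunits Ttc37 and Wdr61 at 55.8 and 37.3 CPM and 163 and 109 CPM. Wdr61 shares 33.9% of its exonic bases with Dnaja4 on the opposite strand.

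Other routes of messenger RNA decay gave list medians of −0.70 for 17 genes of decapping and 5′ to 3′ decay, −0.60 for 15 deadenylation genes and −0.84 for 10 genes of nonsense-mediated decay, beside −0.34 for the 9 exosome subunits. At least 1.5-fold lower were 10, 8 and 6 genes of these lists, and 1, none and none were higher, beside 50.4% and 11.7% of all genes. Under TMM the counts were 4, 2 and 3 lower and 3, 3 and 1 higher, beside 28.1% and 27.2%. The lowest of each were the decapping factors Patl1 (27 and 8.2 CPM) and Lsm3 (49.7 and 17.5 CPM), the deadenylase Cnot6l (93.4 and 21.9 CPM) with the scaffold Cnot1 (375.5 and 153 CPM), and Upf3a (11.2 and 3.37 CPM) with the kinase Smg1 (111 and 42.6 CPM). The highest were Lsm1 (30.8 and 50.6 CPM) and Lsm4 (23.2 and 27.9 CPM), Cnot11 (5.54 and 5.96 CPM) and Cnot10 (178 and 185 CPM), and Smg5 (50.7 and 58.9 CPM) and Smg8 (35 and 34.5 CPM). Against erythroid-like BFU-E cells the 3 list medians were −0.49, −0.55 and −0.86, beside −0.53 for all genes and −0.33 for the subunits. The decapping list thus lay below the median of all genes in the first comparison and above it in this one. There 7, 7 and 6 genes were at least 1.5-fold lower (48.6% of all genes) and none, none and 1 higher (11.5%). Whether the lists differ from one another was not tested.

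**Figure D5:**
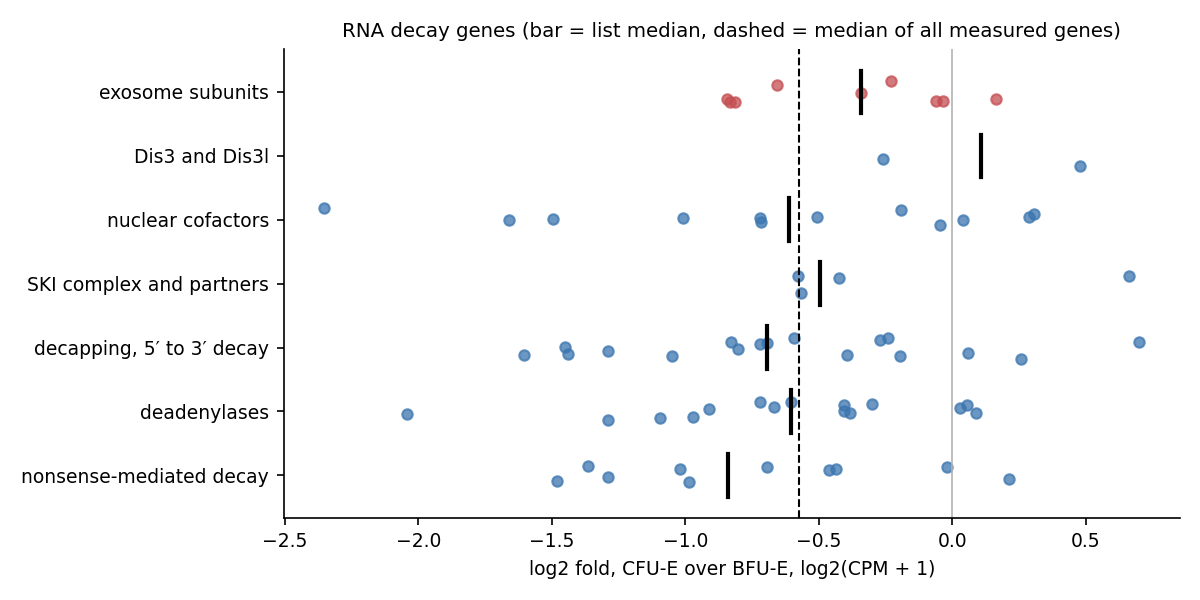
Log2 fold of CFU-E over BFU-E cells on the log2(CPM + 1) scale for each measured gene of the exosome (red) and of other RNA decay lists (blue), with the median of each list as a bar and the median of all measured genes, −0.57, as a dashed line. The subunits lie between −0.84 and 0.16, and the other lists together reach both lower and higher.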

How the data were processed

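Single cells were profiled by SmartSeq2 on polyadenylated RNA with Nextera XT tagmentation, per the labels' protocols, a method that reads whole transcripts and marks neither strand nor molecule. The deposited values are whole-number counts per gene without normalization. The submitters' processing notes name STAR 2.4, featureCounts without a version, and the build GRCm38. No annotation release or treatment of shared reads is given in the sources used here. Of 192 labelled cells, 191 columns matched by name (1 column was not used), and of 49466 genes 49326 matched GENCODE M21, used for positions and lengths.

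Wells under 100000 counts or 2000 genes were dropped (4 BFU-E and 6 CFU-E wells), and the rest were thinned to 100000 counts (seed 1) and summed to 9200000 and 8900000 counts, where a floor of 3 counts is 0.326 and 0.337 CPM. CPM and shares carry exact 95% Poisson and Clopper-Pearson intervals, ratios exact conditional binomial ones, and log2 folds use log2(CPM + 1). PCR copies of a molecule cannot be recognised in these libraries, so the intervals cover counting error only. A gene was measured at a mean of 5 CPM, and calls at 1.5-fold and 2-fold carry no test. TMM (edgeR 4.0.16) and median-of-ratios (DESeq2 1.42.0) factors were alternatives. Each plate was clustered without the subunits by Ward's method on 10 components of 1000 genes, with a mean silhouette under 0.2 read as no clusters (BFU-E 0.321, CFU-E 0.152). Wells held sorted single cells, and no doublet caller was run. The subunits and lists were chosen with earlier results of these data known, and shares of the exosome counts were added after the values were seen. Named were the subunits, Dis3, Dis3l, Skiv2l2, Gata1, Foxo3 and Kit, the 2 highest and 2 lowest measured genes of each other list (RNA decay, erythroid regulators, maturation), and the 5 genes most like the complex. The ratio step was tested on simulated data (Python 3.11.15, numpy 2.4.6, scipy 1.17.1).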

Additional observations from a re-analysis of the deposited data

Results flagged for a closer look

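The wells left out for low depth still held exosome counts, outside the cells compared. In the 4 BFU-E wells, with 74961 counts in all, the 9 subunits summed to 1374 CPM (1122 to 1666). In the 6 CFU-E wells, with 225583 counts, they summed to 886.6 CPM (768 to 1018). Exosc6 had no count in either. These wells have no control for background, and their values rest on 103 and 200 exosome counts.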

How the results depend on the processing

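For the summed complex, the log2 fold of −0.33 for CFU-E against BFU-E was −0.28 with another thinning seed, −0.41 without thinning, −0.44 over odd and −0.22 over even cells, and turned to 0.24 with TMM and to 0.30 with median-of-ratios factors. Against erythroid-like BFU-E cells, −0.39 became −0.45 without thinning, −0.47 over odd and −0.29 over even cells, and 0.20 and 0.28 under the 2 scalings. The median of the subunits, −0.34, was −0.52 in wells thinned to 20000 counts, −0.51 with thinning to 300000 counts and −0.58 without thinning, and 0.23 and 0.28 under the 2 scalings. The 4 subunits at least 1.5-fold lower became 0 under both scalings, and those at least 1.5-fold higher, 0 otherwise, became 1 and 2. At 2-fold, 1 subunit, Exosc9, was lower without thinning and 1 over odd cells. Signs turned under the 2 scalings for Exosc1 (0.53 and 0.59), Exosc4 (0.33 and 0.39), Exosc8 (0.23 and 0.28) and Exosc10 (0.51 and 0.57), for Exosc1, near 0, also over odd cells (0.06), without wells of extreme depth (0.08) and in wells with at least 300000 counts (0.03), for Exosc10, likewise near 0, over even cells (0.32) and with thinning to 20000 counts (0.02), and for Exosc7 with thinning to 20000 counts (−0.0285) and over odd cells (−0.00755). The pseudocount moved none of the 9 subunits beyond its counting interval. Dis3 and Dis3l were each at 0 in 45 of 92 BFU-E cells, more than any of the 9 subunits. Without thinning they were at 0 in 32 and 30 of these cells, and the part of depth in this was not tested. Plates, lanes and embryos have no estimate of error. No paired analysis was possible because each cell type is 1 sample and the label numbers only name wells.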
